A study of Mus musculus with 21 samples.

Results

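Testes of FXR knockout (KO) mice were compared with testes of wild type (WT) mice after both had received stigmasterol, a plant sterol. The comparison rests on 7 of the 21 libraries of the series, 3 KO animals (T10, T15 and T93) and 4 WT animals (T78, T98, T118 and T119), chosen by the genotype and treatment in their labels, and on the 20254 of 32643 annotated genes with enough reads to be tested. RNA had been taken from testes at postnatal day 10. The strain of all 21 animals is labelled as 50% 129sv and 50% C57Bl6, and 1 library was made per animal. The other 14 animals of both genotypes had received vehicle or bisphenol A (BPA), with 4 WT and 3 KO animals under each. No animal belonged to more than 1 treatment, so the genotype differences under the 3 treatments share no sample. The labels name no dose, route or litter and do not say which part of the gene was deleted. The p-values therefore measure the spread between animals within the genotype and treatment groups of all 21 libraries. That spread may include the one between litters.

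FXR, the product of Nr1h4, is a nuclear receptor that binds bile acids and acts on its targets as a partner of the retinoid X receptor. In liver and intestine it induces Nr0b2 (SHP), a repressor of bile acid synthesis, and the transporters Slc51a and Slc51b, and it restrains Cyp7a1. Stigmasterol is a sterol that resembles cholesterol and has been described as an FXR antagonist and as an agonist of the liver X receptors, which govern cholesterol efflux. The testis at this age holds Sertoli cells, which nurse the germ cells, spermatogonia, and the first germ cells to enter meiosis, together with Leydig cells that make steroids from cholesterol. The comparison asks which transcripts differ between the genotypes when both receive the plant sterol.

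The 7 libraries held 35459523 to 57987087 counted reads. Levels are given as CPM, the counts scaled to library totals that TMM had corrected for composition, and 3 reads corresponded to 0.0513 to 0.0884 CPM. Fold changes are log2 values, KO minus WT, with their standard error (SE). Unless another tool is named, an adjusted p is from edgeR's quasi-likelihood test, two-sided, with Benjamini-Hochberg adjustment over all genes tested, and a gene was called at an adjusted p under 0.05.

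Nr1h4 (ENSMUSG00000047638, chromosome 10, 89454234 to 89533585, mm10) was read at a low level in both genotypes. It had 27, 14, 32 and 19 reads in WT animals T78, T98, T118 and T119, or 0.547, 0.303, 0.582 and 0.56 CPM, and 14, 15 and 18 reads in KO animals T10, T15 and T93, or 0.318, 0.331 and 0.308 CPM. The 95% Wilson interval, which covers counting error only, ran from 0.177 to 0.499 CPM of the raw total in T98 and from 0.203 to 0.554 in T15. WT animal T98 lay among the KO animals and the other WT animals lay above them. The log2 fold change of -0.64 ± 0.39 (SE, adjusted p = 0.383) was not called. Because the deleted part is unknown, reads over the full locus are no check of the labels.

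Of the 3 KO libraries, 2 had high levels of genes known from epithelium that lies next to the testis. Cdh16, a cadherin found in the epithelium of kidney and epididymis, was at 86 CPM in T10 and 203 CPM in T93. It was at 0.949 CPM in the KO animal T15 and at 0.223, 2.62, 0.582 and 1.18 CPM in the WT animals. Over a list of 27 epididymis and efferent duct genes the summed level was 577 CPM in T10, 224 CPM in T15 and 1026 CPM in T93, against 146 to 190 CPM in the 4 WT libraries. Of its 23 tested genes, 17 reached 10 CPM in T93 and 10 in T10, where every other library had 3, and 1 was at 0 in T15. The keratin Krt18 stood at 19.8, 4.37 and 56 CPM in T10, T15 and T93 and at 0.891 to 2.82 CPM in WT. The receptor kinase Ros1 and the defensin Defb1 were at 2.27 and 2.25 CPM in T10 and at 7.18 and 4.74 CPM in T93. In T15 they were at 0.0442 and 0.0662 CPM and in WT at 0 to 0.0909 CPM. The adhesion molecule Epcam was highest in the same 2 libraries, at 121 CPM in T10 and 181 CPM in T93. T15 had 85.3 CPM of Epcam, above the WT range of 40.2 to 62. Pax8 and Pax2, transcription factors of the duct lineage, were at 8.19 and 10.3 CPM in T10, 2.41 and 6.4 CPM in T15 and 11.1 and 11.4 CPM in T93. The WT ranges were 2.23 to 3.49 CPM for Pax8 and 4.78 to 7.75 CPM for Pax2, so T15 lay within both. A list of 12 smooth muscle genes, which peritubular myoid cells share with the wall of the duct, summed to 1736, 1454 and 2567 CPM in T10, T15 and T93 and to 1334 to 1732 CPM in WT. Most counts of genes below are therefore also given without T10 and T93. This leaves T15 as the 1 KO animal under stigmasterol, assumed to vary as the other groups do. For most lists they are also given with a covariate, the mean log2 CPM of the epididymal genes in each library. For that mean each gene was centred on its own mean over the 21 libraries.

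**Figure D1:**
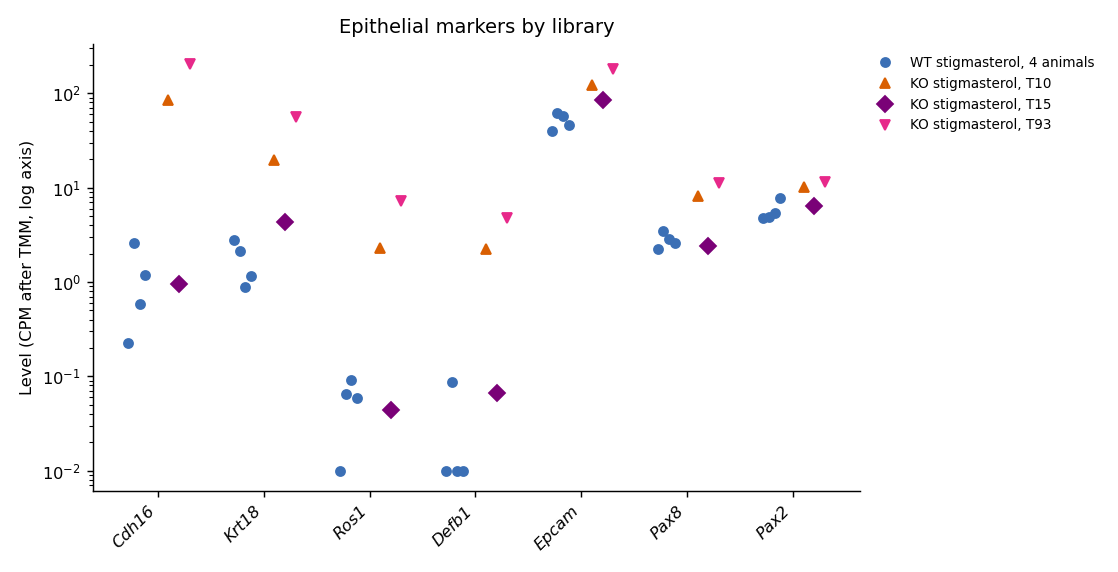
Levels of 7 markers of epididymal and related epithelium in the 7 stigmasterol libraries, in CPM on a log axis, with WT animals as circles and each KO animal as its own symbol. Values under 0.01 CPM, all of them 0, are drawn at 0.01. T10 and T93 lie highest for all 7 genes, with Cdh16 at 86 and 203 CPM, while T15 lies at 0.949 CPM for Cdh16.

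The spread was estimated over all 21 libraries, and a fit of the 7 stigmasterol libraries alone called 327 genes. In the main comparison, with all 7 in the fit, 1461 genes were called, 7.21% of those tested, 784 higher in KO (3.87%) and 677 lower (3.34%). At least 2-fold differences were found for 573 of them (2.83%), 429 higher (2.12%) and 144 lower (0.711%). The animals of the 2 genotypes did not overlap for 1242 of the called genes (85%), against 3449 of all genes tested (17%), 1709 of them higher in KO (8.44%). Leaving out 1 animal in turn gave 589 genes without T93, 800 without T119, 835 without T10, 857 without T118 and 1219 to 1475 without T15, T98 or T78, and 389 genes were called in each of the 7 fits. Without T10 and T93, 113 genes were called (0.558%), 70 higher and 43 lower, of which 112 were also called with all libraries (0.553% of those tested, 7.67% of the 1461). With the epididymal covariate 608 genes were called (3%), 226 higher (1.12%) and 382 lower (1.89%), and 515 of the 1461 genes were among them, so that 75.9% of the rises and 51.8% of the falls lost their call. Epididymis and efferent duct genes account for 11 calls, all higher, of 23 tested (median log2 fold change 3.65, against 0.02 over all genes). With T10 and T93 left out edgeR called 0 of them, with 1 higher at an unadjusted p under 0.05, and their median was 0.27. With the covariate 2 were called higher and 1 lower, and the median was 0.24. The covariate is the mean of these same genes, and T10 and T93 were left out because they were high in them. Both drops of the median were therefore built in and test nothing about these genes.

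The relaxin receptor Rxfp1 (ENSMUSG00000034009, chromosome 3, 79641611 to 79737880) rose most among called protein-coding genes with a conventional symbol, no overlap between the genotypes and a mean of 1 CPM or more in KO. Some called genes that overlapped or were lower in level had larger fold changes, Cdh16 among them. It was at 0.405, 0.433, 0.291 and 0.471 CPM in the WT animals T78, T98, T118 and T119, and at 14.9, 22.3 and 20.8 CPM in the KO animals T10, T15 and T93. The log2 fold change was 5.60 ± 0.26 (adjusted p = 1.42e-10), and it was 5.81 without T10 and T93. The ligand gene Rln3 was at 0.223 to 0.606 CPM in WT animals and 0.94 to 1.34 CPM in KO (1.40 ± 0.32, adjusted p = 0.0129), without overlap. Rln3 lost its call without T10 and without both T10 and T93 (adjusted p = 0.291).

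Other rises were as clear in T15 as in T10 and T93. Pianp, a membrane protein first found in brain, stood at 3.22 to 5.13 CPM in WT and at 35.2, 35.1 and 44.1 CPM in the 3 KO animals (3.35 ± 0.47, adjusted p = 0.000342). Tmod4, a tropomodulin that caps actin filaments, was at 0.56 to 0.823 CPM in WT and at 3.93, 3.58 and 3.69 CPM in KO (2.43 ± 0.17, adjusted p = 5.74e-08). Crxos, a homeobox gene, was at 0.206 to 0.346 CPM in WT and at 2.06, 2.52 and 1.39 CPM in KO (2.79 ± 0.29, adjusted p = 8.95e-06). Tescl was at 0.0811 to 0.206 CPM in WT and at 1.16, 0.971 and 1.54 CPM in KO (2.89 ± 0.30, adjusted p = 8.95e-06). The KO animals lay above every WT animal for each of these genes, which was a condition of their choice. A call without T10 and T93 was another. The pseudogene Akt2-ps rested on 1, 3, 1 and 7 reads in the WT animals T78, T98, T118 and T119 but on 110, 145 and 182 reads in T10, T15 and T93, and reads of a pseudogene can come from its parent gene.

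Falls were likewise shared by the 3 KO animals. Olfml3, a secreted matrix glycoprotein, was at 66.2, 41, 51.5 and 59.7 CPM in WT and at 10.6, 9.29 and 21.9 CPM in KO (-1.97 ± 0.28, adjusted p = 0.000342). Shisa7, a partner of neuronal receptors, was at 2.67 to 3.8 CPM in WT and at 0.908, 0.508 and 0.718 CPM in KO (-2.24 ± 0.27, adjusted p = 7.04e-05). Isoc2b, of the isochorismatase family, was at 4.67 to 6.86 CPM in WT and at 1.54, 1.48 and 1.66 CPM in KO (-1.86 ± 0.17, adjusted p = 2.86e-06). Usp44, a deubiquitinase of the mitotic checkpoint, was at 3.11 to 4.95 CPM in WT and at 1.23, 1.3 and 1.37 CPM in KO (-1.58 ± 0.19, adjusted p = 4.68e-05). No overlap between the groups and a call without T10 and T93 were conditions for the choice of these 4 genes. Olfml3 overlaps another annotated gene (BC027582), and the kit does not keep the strand.

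Some mitochondrial transfer RNA genes fell as well. The arginine gene mt-Tr had 79, 92, 80 and 76 reads in T78, T98, T118 and T119 and 9, 2 and 10 reads in T10, T15 and T93 (-3.66 ± 0.56, adjusted p = 0.000755). The leucine gene mt-Tl2 had 51 to 73 reads in WT and 6 to 13 in KO (-2.70 ± 0.35, adjusted p = 0.000131), and the glycine gene mt-Tg had 63 to 88 reads in WT and 13 to 22 in KO (-2.28 ± 0.27, adjusted p = 4.93e-05). Of 22 such genes, a list made after their values were seen, 17 were tested and 4 fell, where 3.34% of all genes tested fell. The gene mt-Tl2 overlaps mt-Ts2 (-2.75), another of the 4, so these 2 may share reads. The summed level of the 22 overlapped, at 106 to 121 CPM in WT animals and 100.3 to 116 CPM in KO. mt-Nd5, a subunit of complex I, fell by 0.42 on the log2 scale (SE 0.12, adjusted p = 0.0423), from 2048 to 2281 CPM in WT to 1916, 1366 and 1575 CPM in T10, T15 and T93. It was the 1 called gene of 14 mitochondrially encoded genes tested. mt-Nd5 lost its call without T10 and T93 (adjusted p = 0.103) and in 5 of the 7 fits that left out 1 animal.

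**Figure D2:**
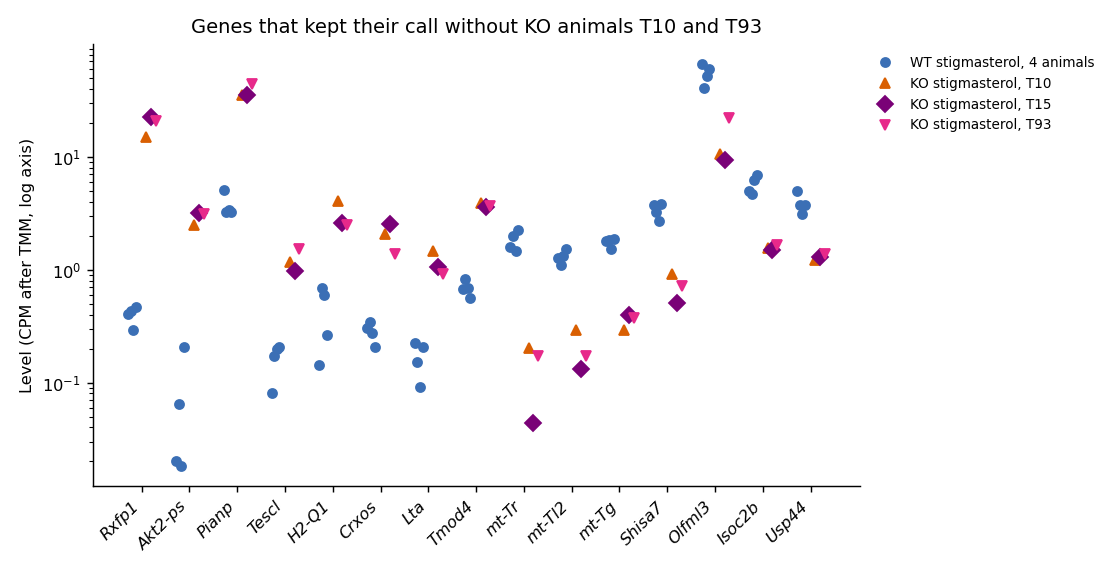
Levels of the 8 largest rises and of 7 of the 8 largest falls among genes called with all 7 libraries and without T10 and T93 that had a conventional symbol, no overlap and a mean of 1 CPM or more in the higher group, in CPM on a log axis, 1 symbol per animal. For each gene the 3 KO animals lie on 1 side of the 4 WT animals, as for Rxfp1 at 14.9 to 22.3 against 0.291 to 0.471 CPM.

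Those 15 genes were called in each fit that left out 1 animal and with the epididymal covariate. Their choice already required no overlap and a call both with all 7 libraries and without T10 and T93. These further calls therefore follow in part from the choice. Among the largest rises under the same limits, but with no need of a call without T10 and T93, the picture differed between animals. Pkhd1, a protein of duct epithelium and cilia, was at 4.95 and 12 CPM in T10 and T93 but at 0.441 CPM in T15, with WT at 0.177 to 0.411 CPM (4.27 ± 0.96, adjusted p = 0.0121). Pdzk1ip1, a membrane protein of kidney tubules, was at 4.36 and 8.7 CPM in T10 and T93 and at 0.243 CPM in T15 (4.98 ± 1.32, adjusted p = 0.028), and the GTPase Rab44 was at 3.11, 8.7 and 0.353 CPM in the same animals (4.22 ± 0.95, adjusted p = 0.0123). These 3 genes and Krt18 (3.93 ± 0.94, adjusted p = 0.0167) lost their calls without T10 and T93, with adjusted p from 0.751 to 0.932. The part of epididymal RNA in them was not tested beyond that measurement. The claudin Cldn23, in contrast, was at 5.99, 12.3 and 10 CPM in T10, T15 and T93 against 0.195 to 0.353 CPM in WT (5.13 ± 1.36, adjusted p = 0.0281), but it was called in 1 of the 7 fits that left out 1 animal. C1rb, a complement protease, was at 2.38, 2.49 and 2.74 CPM in KO and 0.0728 to 0.324 CPM in WT (3.80 ± 0.74, adjusted p = 0.00496). Ttll2, of the tubulin ligase family, was at 1.82, 0.993 and 2.86 CPM in KO and 0.0866 to 0.236 CPM in WT (3.75 ± 0.66, adjusted p = 0.00261). The pseudogene Ccnd3-ps rested on 0, 0, 4 and 1 reads in WT and on 100, 56 and 165 reads in KO. Cldn23, C1rb, Ttll2 and Ccnd3-ps were not called without T10 and T93 (adjusted p from 0.101 to 0.196).

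Large falls without overlap also included the glucose transporter Slc2a2, at 1.91, 2.12, 2.25 and 2.56 CPM in WT and 0.34, 0.287 and 0.188 CPM in KO (-3.03 ± 0.45, adjusted p = 0.000603). Gucy2c, a guanylate cyclase receptor, was at 1.71 to 3.89 CPM in WT animals and 0.221 to 0.613 CPM in KO (-2.79 ± 0.57, adjusted p = 0.00705). The zinc finger gene Zfp536 was at 3.02 to 9.74 CPM in WT animals and 0.905 to 2.31 CPM in KO (-2.05 ± 0.42, adjusted p = 0.00723). Prph2, a tetraspanin of photoreceptors, was at 1.46 to 3.53 CPM in WT animals and 0.342 to 0.971 CPM in KO (-2.11 ± 0.62, adjusted p = 0.0467), and was called in 2 of the 7 fits that left out 1 animal. Without T10 and T93 these 4 genes had log2 fold changes of -1.38 to -3.53 and adjusted p from 0.0702 to 0.652.

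Of 36 known FXR and bile acid genes 30 were tested, and 1 rose and 1 fell, a share close to the 7.21% of all genes tested. Without T10 and T93 edgeR called 0 of the 30, with 1 higher and 1 lower at an unadjusted p under 0.05, and with the covariate 0, with 3 higher and 1 lower. Abcc3, a bile acid exporter, rose from 1.97 to 2.9 CPM in WT to 6.81, 2.98 and 15.7 CPM in T10, T15 and T93 (1.85 ± 0.37, adjusted p = 0.00619). Its level was highest in the 2 libraries high in epididymal genes, and without them the log2 fold change was 0.34 (adjusted p = 0.802). Without T93 alone it was not called. Apoc2, a cofactor of lipoprotein lipase, fell from 16, 32, 25 and 6 reads in T78, T98, T118 and T119 to 1, 2 and 0 reads in T10, T15 and T93 (-4.17 ± 0.97, adjusted p = 0.0141). The KO counts of Apoc2 are at or under the 3 reads taken as the floor, it overlaps Apoc4, and its call was lost without T10 (or T93). The other 28 genes had log2 fold changes from -0.98 (Baat, which conjugates bile acids) to 1.03 (Slc51a) and included Cyp7a1, Cyp7b1, Rxra, Fgf15, Insig2, Abcb4 and Nr0b1. Nr0b2 was at 1.09 to 2.29 CPM in WT animals and 1.41 to 1.72 CPM in KO (-0.08 ± 0.29, adjusted p = 0.909). Slc51a was at 0.122 to 0.736 CPM in WT animals and 0.701 to 1.08 CPM in KO (1.03 ± 0.42, adjusted p = 0.158), and Slc51b at 0.498 to 0.972 and 0.53 to 0.862 CPM (-0.15 ± 0.29, adjusted p = 0.836). The animals overlapped for all 3. Cyp27a1, a sterol hydroxylase of bile acid synthesis, was nearest to a call, at 39.2, 39.5, 45.7 and 45.7 CPM in WT and 53.8, 56 and 61.4 CPM in KO (0.43 ± 0.13, adjusted p = 0.05, which rounds a value just above the threshold), without overlap.

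Cholesterol synthesis and uptake genes were lower in KO. Of 26 tested, 7 fell, 0 rose and 3 had a log2 fold change above 0, where 53.8% of all genes tested did, and their median was -0.27 (0.02 over all genes). The single rise at an unadjusted p under 0.05 stood against 17 falls. DESeq2 called 13 lower and 0 higher, and limma-voom 8 lower and 0 higher. Their summed level was 2395, 2129, 2208 and 2222 CPM in the WT animals T78, T98, T118 and T119. In the KO animals T10, T15 and T93 it was 1781, 1887 and 1536 CPM, without overlap. The genotypes did not overlap under vehicle either, at 1830 to 2034 CPM in KO and 2053 to 2360 CPM in WT. Nor did they under BPA, at 1852 to 1904 CPM in KO and 1977 to 2151 CPM in WT. In bulk tissue fewer cells of a type and less RNA per cell cannot be told apart. Hmgcs1, an early enzyme of the pathway that makes HMG-CoA, was at 437, 359, 456 and 516 CPM in WT and 297, 275 and 214 CPM in KO (-0.75 ± 0.14, adjusted p = 0.00403). It kept its call in all 7 fits that left out 1 animal and with the epididymal covariate. Further down the pathway Cyp51, the lanosterol demethylase, was at 69.6 to 79 CPM in WT and 57.9, 64.6 and 46.9 CPM in KO (-0.39 ± 0.09, adjusted p = 0.0168). Ebp, an isomerase, was at 26.9 to 38 CPM in WT animals and 21.1 to 25 CPM in KO (-0.59 ± 0.15, adjusted p = 0.0258), and the methyl oxidase Msmo1 at 76.4 to 87.7 and 51.6 to 71.5 CPM (-0.37 ± 0.10, adjusted p = 0.03). Srebf2, the transcription factor of the pathway, was at 273 to 331 CPM in WT animals and 220 to 254 CPM in KO (-0.30 ± 0.08, adjusted p = 0.0372). KO animals lay below WT animals for all 7 fallen genes. Idi1, at -0.33, was not called, and Acat2 had the highest value, 0.33. In the fit without T10 and T93 edgeR called 0 of the 26 genes, with 3 lower and 0 higher at an unadjusted p under 0.05. Of the 26, 23 then lay below 0, with a median of -0.16. With the covariate 3 fell and the median was -0.19. Under vehicle 2 of the 26 fell, where 1.68% of all genes tested fell and 1.24% rose, and the median was -0.15. Under BPA edgeR called 0, with 2 higher and 2 lower at an unadjusted p under 0.05 (8.16% of all genes tested in either direction), and the median was -0.13. No sterol gene was called in the difference between treatments.

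**Figure D3:**
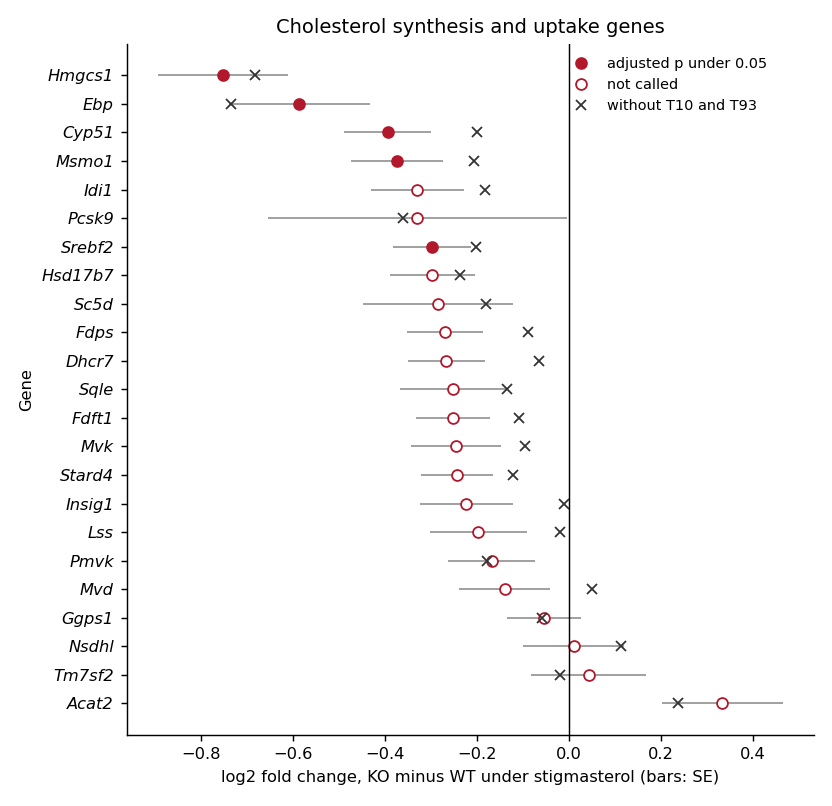
Log2 fold change, KO minus WT under stigmasterol, of 23 of the 26 cholesterol synthesis and uptake genes, with bars for the SE, filled circles for called genes and crosses for the value without T10 and T93. The 5 called genes shown run from -0.75 (Hmgcs1) to -0.30 (Srebf2), and most crosses lie nearer to 0 than the circles.

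The start-site regions of 3 of the fallen genes are shown because sterol synthesis genes are known for a shared promoter design, in which sterol regulatory elements stand near CCAAT boxes. Each runs from 250 bases before to 50 bases after the RefSeq start (GRCm38.p6), written 5′ to 3′ on the gene's strand. Capitals mark CCAAT and TCACCCCA, the core of a sterol regulatory element, on either strand, so that ATTGG is CCAAT on the other strand. The regions are chr13:119690101-119690400 (plus strand) for Hmgcs1, chr5:4104648-4104947 (minus strand) for Cyp51 and chr15:82147019-82147318 (plus strand) for Srebf2.
Hmgcs1: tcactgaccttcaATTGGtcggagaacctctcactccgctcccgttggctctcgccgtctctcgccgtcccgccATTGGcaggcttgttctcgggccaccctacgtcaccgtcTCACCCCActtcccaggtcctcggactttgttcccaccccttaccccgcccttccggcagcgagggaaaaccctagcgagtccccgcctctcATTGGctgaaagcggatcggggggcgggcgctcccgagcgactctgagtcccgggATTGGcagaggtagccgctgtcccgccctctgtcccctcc
Cyp51: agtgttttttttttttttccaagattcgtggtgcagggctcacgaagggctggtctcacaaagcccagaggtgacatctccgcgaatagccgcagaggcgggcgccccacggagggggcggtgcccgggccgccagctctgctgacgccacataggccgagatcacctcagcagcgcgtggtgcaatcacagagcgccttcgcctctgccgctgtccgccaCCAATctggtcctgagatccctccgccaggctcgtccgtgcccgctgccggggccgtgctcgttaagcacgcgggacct
Srebf2: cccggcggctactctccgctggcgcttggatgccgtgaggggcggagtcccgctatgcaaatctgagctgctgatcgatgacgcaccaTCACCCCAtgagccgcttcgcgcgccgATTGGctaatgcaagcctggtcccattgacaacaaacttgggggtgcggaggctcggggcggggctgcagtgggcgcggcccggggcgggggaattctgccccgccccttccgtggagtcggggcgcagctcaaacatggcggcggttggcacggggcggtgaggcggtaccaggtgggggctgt
Hmgcs1 held 4 CCAAT matches and 1 TCACCCCA, Srebf2 1 of each, and Cyp51 1 CCAAT and 0 TCACCCCA. Of the 7 fallen genes 5 had an entry in the RefSeq promoter table, and all 5 held CCAAT. Over the list 18 genes had an entry, and 17 of them held CCAAT, against 12289 of the 32851 promoters of the table (37.4%). A gene of the list counted if any of its promoters matched, while the shares over the table count single promoters. TCACCCCA stood in 2 of the 18 (Hmgcs1 and Srebf2) and in 1.56% of all promoters. These are matches of letters in a window, not sites shown to be bound.

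Genes of sterol transport and of the liver X receptors moved in both directions. Of 22 tested, 3 fell and 1 rose, where 3.34% and 3.87% of all genes tested did, with a median of -0.12. The summed level was 3565 to 4038 CPM in WT animals and 2789 to 2992 CPM in KO, without overlap. Scarb1, the receptor that takes up cholesterol from high-density lipoprotein, was at 265 to 333 CPM in WT and 196, 215 and 204 CPM in KO (-0.51 ± 0.11, adjusted p = 0.0112). Scd2, a fatty acid desaturase, was at 1108 to 1477 CPM in WT animals and 846 to 920.0 CPM in KO (-0.53 ± 0.12, adjusted p = 0.0123). Soat1, which esterifies cholesterol, was at 144 to 251 CPM in WT animals and 98.6 to 165 CPM in KO, with overlap (-0.75 ± 0.21, adjusted p = 0.0367). Npc1l1, the intestinal transporter that takes up plant sterols and cholesterol, was at 0.75 to 1.17 CPM in WT animals and 1.5 to 2.51 CPM in KO (1.03 ± 0.30, adjusted p = 0.0425). Soat1 and Npc1l1 were each called in 2 of the 7 fits that left out 1 animal. EdgeR without T10 and T93 called 0 of the 22, with 1 higher and 5 lower at an unadjusted p under 0.05, and with the covariate 4 were lower. Of the 21 Leydig cell steroidogenesis genes only Ptgds, a prostaglandin synthase, was called, higher in KO (1.38 ± 0.37, adjusted p = 0.0297), at 11.6, 7.04 and 16.8 CPM against 2.68 to 7.54 CPM, with overlap. That 1 call of 21 is close to the share over all genes tested. Neither the fit without T10 and T93 nor that with the covariate called any of the 21 in edgeR, with 0 and 2, both lower, at an unadjusted p under 0.05.

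Sertoli cell markers lay below 0 for all 29 genes tested (median -0.33), but 1 was called. Nr5a1, the steroidogenic factor SF1, was at 273, 220, 244 and 307 CPM in T78, T98, T118 and T119 and at 185, 213 and 194 CPM in T10, T15 and T93 (-0.40 ± 0.11, adjusted p = 0.0322). It lost its call without T10 and T93 (adjusted p = 0.579). At an unadjusted p under 0.05 11 of the 29 were lower and 0 higher. DESeq2 called 7 lower and 0 higher. EdgeR called 0 of the 29 without T10 and T93, where 4 were lower at an unadjusted p under 0.05, and 0 with the covariate, where 10 were. The summed level was 10170 to 13440 CPM in WT and 8371, 8948 and 9597 CPM in KO, without overlap. Under vehicle the median was -0.38 with 5 called lower, and under BPA -0.08 with 0 called by edgeR, where 2 were lower and 0 higher at an unadjusted p under 0.05. Among junction genes of the blood-testis barrier Tjp1 (ZO-1) and Gja1 (connexin 43) were lower and Cldn3 was higher, of 18 tested (3.34% and 3.87% of all genes tested). Tjp1 was at 246 to 249 CPM in WT and 203, 196 and 221 CPM in KO (-0.26 ± 0.06, adjusted p = 0.0108), a small difference with little spread. Gja1 overlapped between the groups (-0.68 ± 0.20, adjusted p = 0.0475). Cldn3 was at 8.96 and 25.1 CPM in T10 and T93, and at 2.61 CPM in T15 within the WT range of 1.82 to 3.38 CPM (2.33 ± 0.69, adjusted p = 0.0463). With T10 and T93 left out edgeR called 0 of the 18, with 0 higher and 3 lower at an unadjusted p under 0.05, and with the covariate 3 were lower.

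Germ cell genes gave a few calls against a wide spread between WT animals. The summed level of 36 tested meiotic prophase genes was 1496, 4314, 3079 and 1726 CPM in T78, T98, T118 and T119, all WT, against 3774, 2866 and 2020 CPM in the KO animals. Neither edgeR, DESeq2 nor limma-voom called any of the 36, 0 had an unadjusted p under 0.05, and 29 lay above 0 (median 0.26). EdgeR again called 0 without T10 and T93 and with the covariate, with 0 and 1 at an unadjusted p under 0.05. Among 19 genes of undifferentiated spermatogonia 2 rose and 0 fell, where 3.87% and 3.34% of all genes tested did. At an unadjusted p under 0.05 2 were higher and 2 lower, and with the covariate 1 was called higher. The median of the list was 0.003, with 10 genes above 0, and it was -0.07 without T10 and T93. Pou5f1, the pluripotency factor OCT4, was at 4.46, 5.13, 4.8 and 3.89 CPM in WT and 8.81, 13 and 9.11 CPM in KO (1.17 ± 0.19, adjusted p = 0.00115), and stayed called without T10 and T93 (1.51, adjusted p = 0.00531). Utf1, a chromatin factor of early spermatogonia, was at 1.32 to 2.49 CPM in WT and 3.68, 4.64 and 3.13 CPM in KO (0.91 ± 0.24, adjusted p = 0.0294). Ccna1, the cyclin A of spermatocytes, was at 0.673 to 0.871 CPM in WT and 2.47, 2.89 and 1.68 CPM in KO (1.61 ± 0.29, adjusted p = 0.00273), with calls in all 7 fits that left out 1 animal. Piwil1 (MIWI), an argonaute protein of spermatocytes and spermatids, fell from 6.36 to 8.92 CPM to 4.92, 5.14 and 4.41 CPM (-0.59 ± 0.15, adjusted p = 0.0199). Utf1 and Piwil1 lost their calls without T10 and T93 (adjusted p = 0.156 and 0.443). Pou5f1 overlaps the antisense gene Gm19553, whose reads cannot be told from its own. Of 34 motile cilia genes 4 rose, where 3.87% of all genes tested did, and 0 fell, with 2 lower at an unadjusted p under 0.05. They were Spag17 (2.18 ± 0.50, adjusted p = 0.0134), Dnah6 (2.06 ± 0.57, adjusted p = 0.0342), Dnaic2 (0.74 ± 0.15, adjusted p = 0.00726) and Tekt2 (0.55 ± 0.16, adjusted p = 0.0423). Spag17 was at 0.221 to 0.794 CPM and Dnah6 at 0.684 to 1.91 CPM in KO, both highest in T10. In the fit without T10 and T93 edgeR called 0 of the 34, with 3 higher and 1 lower at an unadjusted p under 0.05, and with the covariate 1 was lower and 0 higher. Efferent ducts carry motile cilia, and the part of their RNA in these values was not tested.

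Macrophage, interferon-induced, endothelial, stress, and estrogen and xenobiotic receptor lists each had 1 or 2 calls. That share was close to the 7.21% of all genes tested. Cd163, a scavenger receptor of macrophages, was at 2.09, 2.34, 2.27 and 2.95 CPM in WT and 1.18, 1.1 and 1.32 CPM in KO (-1.0 ± 0.22, adjusted p = 0.0116), 1 of 14 macrophage genes tested. The interferon-induced antiviral gene Rsad2 was at 1.21 to 2.15 CPM in WT animals and 0.499 to 0.667 CPM in KO (-1.45 ± 0.27, adjusted p = 0.00392). It was 1 of 2 that fell among 24 interferon-induced genes tested. Klf6 and Hspa1a fell among 26 immediate early and heat shock genes, by 0.48 (SE 0.09, adjusted p = 0.00308) and 0.63 (SE 0.18, adjusted p = 0.0421) on the log2 scale. The endothelial gene Egfl7 rose (0.35 ± 0.10, adjusted p = 0.0445) and the nuclear receptor Esrrg rose (1.26 ± 0.36, adjusted p = 0.0413). Esrrg was at 2.41, 1.02 and 3.97 CPM in T10, T15 and T93 and 0.758 to 1.46 CPM in WT, so that T15 lay within the WT range. Without T10 and T93 none of the 6 genes named here was called, with adjusted p from 0.156 to 0.994. With the covariate 1 macrophage, 1 interferon-induced and 1 immediate early or heat shock gene were called, each lower. In lists of differentiating spermatogonia, proliferation, apoptosis, peritubular myoid, fat, liver plasma protein and red cell genes, 106 tested genes in all, edgeR called 0. At an unadjusted p under 0.05 6 were higher and 8 lower, and DESeq2 called 2.

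Cytosolic ribosomal protein genes were higher in KO, a list made after their values were seen. Of 77 tested, 32 rose and 0 fell, 76 lay above 0 and the median was 0.21. At an unadjusted p under 0.05 58 were higher and 0 lower, and DESeq2 called 38 higher and 0 lower. Their share of all counts was 1.85% to 2.1% in WT and 2.21%, 2.47% and 2.49% in T10, T15 and T93. Without T10 and T93 5 rose and all 77 lay above 0, with a median of 0.26, and with the covariate 22 rose. Under vehicle the same list had a median of -0.17 with 4 called lower and 74 below 0, and under BPA a median of 0.06 with 0 called by edgeR, where 10 were higher and 0 lower at an unadjusted p under 0.05. Gene length moved with the fold change. Over genes at 10 CPM or more the median was 0.02 in the shortest of 5 classes (0.204 to 0.812 kb) and -0.07 in the longest (3.4 to 19.8 kb), against -0.06 and 0.04 under vehicle. The median length of the ribosomal protein genes was 0.643 kb, and the part of length or RNA quality in their values was not tested.

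The difference between treatments itself was called for 2 genes against vehicle (0.00987%), with 1855 at an unadjusted p under 0.05 (9.16%). They were Rpl31, of the ribosomal protein list, and Rps27rt, which is not in that list. For Rps27, which is in the list, the difference was not called (adjusted p = 0.135). Rpl31 was at 125 to 135 CPM in WT stigmasterol animals and 167 to 183 CPM in KO (0.46 ± 0.05, adjusted p = 3.42e-05). It was at 161 to 168 CPM in WT vehicle animals and 144 to 163 CPM in KO vehicle animals. The genotype difference was larger under stigmasterol by 0.56 ± 0.08 (adjusted p = 0.012). Rps27rt was at 91.8 to 96 CPM in WT animals and 130.2 to 134 CPM in KO under stigmasterol, and at 110.4 to 119.1 and 108 to 114 CPM under vehicle (difference 0.52 ± 0.08, adjusted p = 0.0151). WT stigmasterol animals lay below WT vehicle animals, and KO stigmasterol animals above KO vehicle animals, for both genes. Among the next by p were Pag1, a membrane adaptor of lymphocytes (-0.58, adjusted p = 0.0761), and Rpl17 (0.48, adjusted p = 0.0761), neither of them called. Without T15 edgeR called 0 genes, with 1647 at an unadjusted p under 0.05, and without T10 it called 9. DESeq2 called 108. Rpl31 and Rps27rt each lie within or beside another annotated gene (Tbc1d8 and Osbpl10), and ribosomal protein genes share sequence with many processed copies.

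Against BPA 1 gene was called (0.00494%), with 1525 at an unadjusted p under 0.05 (7.53%). Lta, the cytokine lymphotoxin alpha (chromosome 17, 35203165 to 35205351), had 11, 7, 5 and 7 reads in the WT stigmasterol animals and 64, 48 and 53 reads in the KO animals. This was 0.0909 to 0.223 CPM against 1.45, 1.06 and 0.906 CPM in T10, T15 and T93 (2.76 ± 0.34, adjusted p = 7.04e-05). Under vehicle KO animals were likewise above WT, at 1.26 to 1.65 against 0.0878 to 0.358 CPM. Under BPA they were below, at 0.123 to 0.206 against 0.307 to 0.453 CPM. The genotype difference under stigmasterol exceeded that under BPA by 4.07 ± 0.51 (adjusted p = 0.00426). The neighbouring cytokine gene Ltb followed by p and was not called (1.73, adjusted p = 0.182), nor were the protease Adam9, the acyltransferase gene Oacyl and the chromatin reader Jade1.

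**Figure D4:**
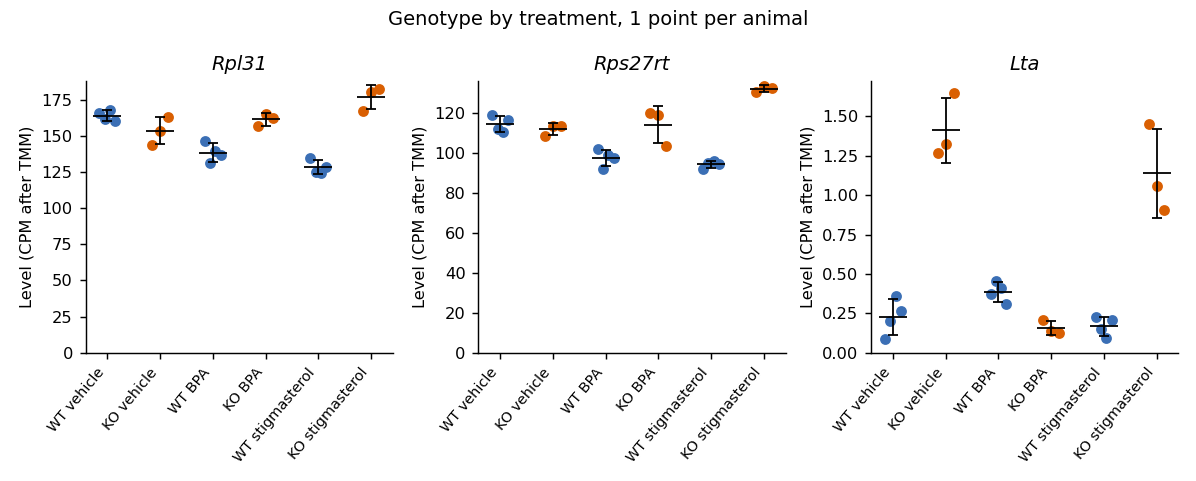
Levels of Rpl31, Rps27rt and Lta in CPM in all 21 animals, 1 point per animal, WT in blue and KO in orange, with bars for the mean and SD of each group. Under stigmasterol KO animals lie above WT animals for all 3 genes, while Lta in KO BPA animals lies at 0.123 to 0.206 CPM, below the WT BPA animals.

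Lta and Ltb lie in a stretch of chromosome 17 where other named genes lie too. H2-Q1 and H2-Q2, MHC class I genes (35320405 to 35325099 and 35342242 to 35346762), rose. In a list of H2 histocompatibility genes with 19 tested, 2 rose and 1 fell, where 3.87% and 3.34% of all genes tested did. H2-Q1 was at 0.142 to 0.693 CPM in WT and 4.06, 2.61 and 2.5 CPM in KO (2.82 ± 0.39, adjusted p = 0.000252), and H2-Q2 at 2.59 to 3.57 and 5.36, 8.12 and 4.36 CPM (1.00 ± 0.19, adjusted p = 0.00442). H2-T24 fell from 4.29 to 5.12 CPM to 2.18, 1.54 and 2.89 CPM (-1.09 ± 0.26, adjusted p = 0.0165) and was not called without T10 and T93 (adjusted p = 0.0968), where H2-Q1 and H2-Q2 were. Reads of MHC class I genes can be shared between near-identical members, which makes their values uncertain. Pou5f1 lies at 35506018 to 35510772. Between 35 and 40 Mb of chromosome 17, 16 of 104 tested genes were called under stigmasterol, 16 under vehicle and 0 under BPA, where 7.21%, 2.92% and 0.859% of all genes tested were called. Under BPA the log2 fold changes of Lta, Ltb, H2-Q1, H2-Q2 and Pou5f1 were -1.30, -0.07, 1.06, 0.32 and 0.10, and 0 of them was called. Apart from Lta, the differences between stigmasterol and BPA of these genes were not called (adjusted p from 0.182 to 0.57).

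Called genes were spread unevenly over the genome. By chromosome the share was largest on chromosomes 3 (104 of 933, 11.1%) and 17 (9.72%), leaving aside the 31 mitochondrial genes. It was 7.99% on chromosome 7 and 6.96% on chromosome 2, against 7.21% of all genes tested. Between 175 and 180 Mb of chromosome 2, 22 of 49 tested genes were called, 20 of them lower, and 19 were called under vehicle and 10 under BPA. Rxfp1, Tmod4 (95124476 to 95129209), Olfml3 (103733700 to 103738001), Slc2a2 (28697903 to 28728356) and Ccna1 (55045469 to 55055055) lie on chromosome 3. Shisa7 (4825552 to 4844696) and Isoc2b (4844959 to 4866193) are neighbours on chromosome 7, and Crxos (15882617 to 15904020) and Tescl (24333080 to 24333965) lie further along it. Around Nr1h4, 17 of 84 genes within 5 Mb were called (20.2%), against 14 of 300 between 5 and 20 Mb (4.67%). Of those 17, Usp44 was the 1 gene also called without T10 and T93. Pseudogenes made up 86 of the 1461 calls (10.4% of the 824 tested) and 27 of the 112. The part of strain background in these positions was not tested, and the labels give 1 strain mix for all animals.

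The genotype differences under stigmasterol resembled those seen in the other animals. Of the 1461 genes, 299 were also called under vehicle (20.5% of the 1461, and 50.5% of the 592 called there, 2.92% of those tested), all in the same direction. Under BPA 150 were called (10.3% of the 1461, and 86.2% of the 174 called there, 0.859%), again all in the same direction. The sign was the same under vehicle for 89% of the 1461 and for 65.4% of all genes tested. Under BPA it was the same for 85.5% and 64.1%. The mean log2 CPM of the epididymal genes, each centred on its own mean over the 21 libraries, was also high in some vehicle and BPA animals. It was 1.961, -1.078 and 1.218 in the KO vehicle animals T1, T90 and T110, and -1.512 to 0.394 in the WT vehicle animals. Under BPA, KO animals had -1.009 to 1.755 and WT animals -1.133 to 1.382. The median log2 fold change of the epididymal list was 1.425 under vehicle and 0.352 under BPA. The part of epididymal RNA in the shared signs was not tested. Of the 112 genes also called without T10 and T93, 86 were called under vehicle (76.8%) and 75 under BPA (67%). Genes called under all 3 treatments numbered 124, 61 higher and 63 lower. Of the 15 genes plotted by animal above, 12 were called under vehicle and 10 under BPA. Rxfp1 was at 9.08 to 18.8 CPM in KO vehicle and 20.1 to 23.6 CPM in KO BPA animals (log2 fold changes 5.08 and 5.33). The 3 mitochondrial transfer RNA genes were not called under vehicle, with -1.0 for mt-Tr, -0.72 for mt-Tl2 and -0.88 for mt-Tg, and their differences between treatments were not called. Being called under stigmasterol and under neither other treatment held for 1136 genes, and of these Rpl31 was the 1 whose difference between treatments was itself called.

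**Figure D5:**
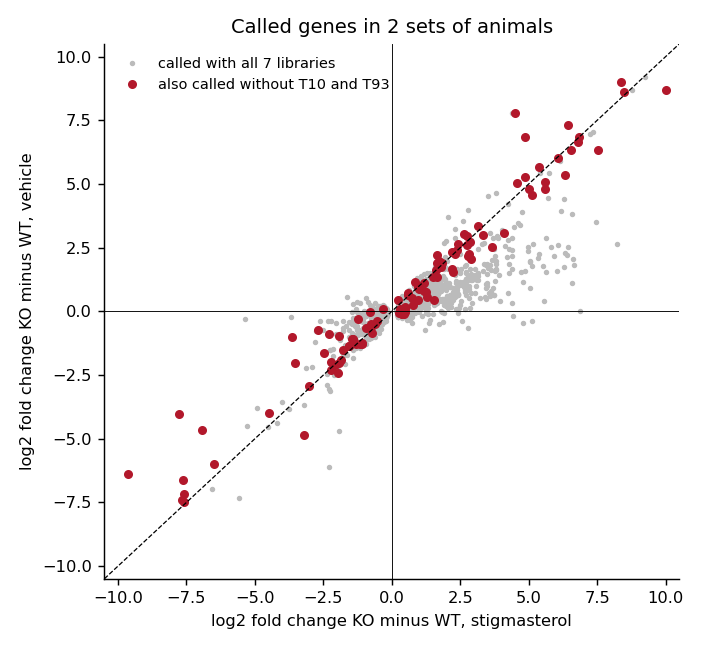
Log2 fold change KO minus WT under vehicle (vertical) against that under stigmasterol (horizontal) for the 1461 genes called under stigmasterol, with the 112 genes also called without T10 and T93 in red and equal values on the dashed line. The 2 axes share no animal, and the sign was the same for 89% of the genes and for 94.6% of the red ones. The KO vehicle animals T1 and T110, like T10 and T93, were high in epididymal genes.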

How the data were processed

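Testis RNA of 21 mice was sequenced with an Illumina TruSeq RNA kit, which does not keep the strand. The authors deposited 1 table with raw read counts per gene and animal, the input of every test here. They also deposited a normalized signal per library and that signal per kb of gene length, used here only for gene length. The authors' deposited log2 fold changes and p-values compare treatments with vehicle and were not used. Per the submitters' processing notes, TopHat2 2.0.10, Bowtie2 2.1.0, Bowtie and CASAVA 1.8.2 were used with the mm10 genome. The sources used here do not name the read counter or the annotation release.

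Counts were fitted in edgeR 4.0.16 (R 4.3.3) over all 21 libraries with 1 mean per genotype and treatment, TMM scaling, filterByExpr (minimum count 10, minimum total 15) and quasi-likelihood tests. SE was taken as the size of the log2 fold change over the root of its F statistic. The common biological coefficient of variation was 19.2%. Replicate libraries differed by 15.2 to 75.8 chi-square units per degree of freedom, more than counting error. DESeq2 1.42.0, limma-voom 3.58.1, RLE scaling, other filters, the 7 libraries alone, left-out animals and an epididymal covariate were alternatives. The covariate was the mean log2 CPM of epididymis genes (prior count 2), each gene centred on its mean over the 21 libraries. Library totals without a scaling factor were added after seeing the data.

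The comparison, the 26 gene lists (549 of 554 symbols in the table) and the alternatives were chosen with earlier results of these data known. Lists are described by counts and medians, without a test. The naming rule took, among called genes with a conventional symbol, no overlap and a mean of 1 CPM or more in the higher group, the 10 largest rises and falls, and the 8 largest each that were also called without T10 and T93. It added up to 4 called genes per list, the FXR list, the 5 smallest p of each difference between treatments, and Cdh16, Pax2, Pax8 and Epcam. Some FXR list members are given by range, and some genes that the rule names are not reported here. Ebp, Msmo1, Srebf2, Idi1, Acat2 and the genes of the other observations are named beyond the rule, after their values were seen. Promoters are from RefSeq (GRCm38.p6).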

Additional observations from a re-analysis of the deposited data

Results flagged for a closer look

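In 5 cases 1 of the 4 WT stigmasterol animals lay far from the other 3 by Dixon's test at the 95% level, which chance alone gives in about 1 in 20 groups. WT animal T78 stood apart for Pianp (5.13 CPM, the other WT animals 3.22 to 3.35), Ebp (26.9 CPM, the others 37.7 to 38) and Srebf2 (331 CPM, the others 273 to 282). For Ebp this animal was the one nearest to the KO animals. WT animal T98 stood apart for Nr1h4 (0.303 CPM, the others 0.547 to 0.582) and for Defb1 (0.0866 CPM, the others 0). That Defb1 level is near the 0.0649 CPM that 3 reads made in T98, so the case rests on few reads.

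The genotype difference differed between treatments by a test of that difference for 3 genes. It was larger under stigmasterol than under vehicle for Rpl31 (0.56 on the log2 scale, adjusted p = 0.012 by edgeR, each of 3 KO stigmasterol animals above all 4 WT) and Rps27rt (0.52, adjusted p = 0.0151, likewise in 3 of 3). It was larger under stigmasterol than under BPA for Lta (4.07, adjusted p = 0.00426, likewise in 3 of 3).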

How the results depend on the processing

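The 1461 genes called under stigmasterol became 2207 with DESeq2, 327 with the 7 libraries alone, 608 with the epididymal covariate and 113 without T10 and T93, and 589 to 1475 with 1 animal left out. Limma-voom, RLE scaling, no filter, 1 CPM in 3 libraries and library totals gave 1206 to 1569. Library totals gave 1060 higher and 509 lower, against 784 and 677, and moved the median of all genes from 0.02 to 0.07. DESeq2 called 1413 genes under vehicle (592 by edgeR) and 302 under BPA (174). The 2 genes of the difference from vehicle became 108 with DESeq2, 1 without T10 and T93, 0 with no filter (2131 at an unadjusted p under 0.05) or with the 4 groups compared alone (1439), and 0 to 9 with 1 animal left out. The 1 gene of the difference from BPA became 28 with DESeq2, 0 without T10 and T93 (833 at an unadjusted p under 0.05) and 1 to 5 with 1 animal left out. The cause of these changes was not tested, apart from fewer samples in some.

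Among named genes, without T10 and T93 the sign turned for Cdh16 (-0.26), Ros1 (-0.28), Pax8 (-0.21), Esrrg (-0.017) and Nr0b2 (0.048). With the covariate it turned for Cdh16 (-0.40) and Cldn3 (-0.078). With 1 animal left out Nr0b2 ran from -0.243 to 0.115 and turned without T119 (0.007) or T78 (0.115), and Slc51b ran from -0.313 to 0.03 and turned without T93. Of 80 called named genes, 43 were called in all 7 fits that left out 1 animal, 50 with the covariate and 28 without T10 and T93. No paired analysis was possible because the animals of the 2 genotypes share no replicate number.

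Genes under about 1 CPM rest on few reads: Nr1h4 had 14 to 32.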

Other observations

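Of the 112 genes called under stigmasterol with and without T10 and T93, 21 were called under neither vehicle nor BPA, 14 higher and 7 lower in KO. These genes were chosen after their values were seen, and of their differences between stigmasterol and vehicle that of Rpl31 was the 1 called. They include the ribosomal protein genes Rpl31, Rpl10a (0.49 on the log2 scale, adjusted p = 6.24e-05 by edgeR), Rps15 (0.37, 0.00376) and Rps27 (0.50, 0.000311). Fzd5, a Wnt receptor, had means of 73.3 CPM in WT and 50.5 CPM in KO (-0.54, adjusted p = 0.00614) and -0.37 under vehicle. Cib2, a calcium-binding protein of hair cells, had 4.05 and 6.87 CPM (0.76, adjusted p = 0.00199) and 0.24 under vehicle. Nfkbid, a nuclear inhibitor of NF-kappa B, had 5.52 and 9.12 CPM (0.72, adjusted p = 0.0132) and 0.54 under vehicle. The vomeronasal receptor Vmn2r12 had 1.88 and 0.8 CPM (-1.23, adjusted p = 0.000703) and -0.29 under vehicle.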
